A study of Homo sapiens with 12 samples.

Results

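The genes described here are 41 genes of the amino acid response and of cytosolic tRNA charging, taken as the array probes annotated to a list of 41 gene symbols, with the tRNA synthetases matched through their older symbols where the annotation carries those. Of the 41 genes, 39 had at least 1 probe and all 39 passed the filter on dim probes, through 47 of their 52 probes. The synthetase gene CARS1 and the alanine aminotransferase gene GPT2 were not analysed here. The 39 comprise 8 regulators and secreted or membrane products of the response, 8 amino acid transporters, 6 enzymes, 16 tRNA synthetases and the tRNA exporter gene XPOT.

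Gene expression was measured from total RNA on Illumina bead arrays in PANC-1, an established human line from a pancreatic ductal adenocarcinoma. All cells carried an inducible form of E47, a basic helix-loop-helix transcription factor encoded by TCF3, which tamoxifen activates. The 12 arrays were 4 of untreated cells, 4 of cells given 1 µM tamoxifen for 48 h and 4 of cells given 4 µM tamoxifen for 48 h. The titles give the lower dose as 1 µM, whereas the treatment note prints a unit of volume for it. No group held cells without the inducible E47 that received tamoxifen, so an effect of tamoxifen itself and one of E47 cannot be told apart. No vehicle is named for the untreated cells, and no time. The labels do not say whether the 4 samples of a group came from separate cultures, so the p-values below reflect the variation among these arrays alone, and that variation may be technical.

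When an amino acid runs short, uncharged tRNA activates the kinase GCN2, which phosphorylates the translation factor eIF2α. General protein synthesis falls while translation of the transcription factor ATF4 rises, and other stresses reach the same step through other eIF2α kinases. ATF4 pairs with C/EBP-family proteins on C/EBP-ATF response elements and drives genes for amino acid uptake, amino acid synthesis and tRNA charging, as well as genes that restrain the response or mTORC1, the kinase complex that couples amino acid supply to growth.

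The C/EBP-ATF element was searched for as the letters TGATGNAA, on both strands, from 250 bases before to 50 bases after each annotated start in RefSeq (GRCh38.p14). It lay in a window of 14 of the 34 genes that had one, in 14 of their 51 windows (27.5%), against 3.62% of all 35116 windows in the table. The list was drawn up around this response and holds known ATF4 targets, so this excess is not independent of the choice of genes. The sites of the 13 such genes with a probe are shown because these are the genes whose ATF4-type element can be read beside an expression value. Each line gives 18 bases, 5′ to 3′, on the strand that reads TGATGNAA, with the element in capitals.
ASNS (chr7:97872464-97872481, minus strand): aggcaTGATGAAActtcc
CHAC1 (chr15:40953257-40953274, minus strand): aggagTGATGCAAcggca
SLC7A1 (chr13:29595669-29595686, minus strand): actgcTGATGAAAcctgg
SLC1A4 (chr2:64989387-64989404, minus strand): ggagaTGATGCAAacggg
SLC3A2 (chr11:62881731-62881748, minus strand): ggagcTGATGTAAggagt
SLC1A5 (chr19:46784899-46784916, minus strand): gtggcTGATGCAAgctgt
GARS1 (chr7:30594840-30594857, minus strand): gagcaTGATGAAAtcgcc
MARS1 (chr12:57488059-57488076, minus strand): ctcgcTGATGCAAccgga
TARS1 (chr5:33440962-33440979, minus strand): ccagcTGATGCAAtcgaa
AARS1 (chr16:70289681-70289698, plus strand): ttggcTGATGCAActgcg
IARS1 (chr9:92293698-92293715, plus strand): ggaggTGATGCAAcgcgc
NARS1 (chr18:57621810-57621827, minus strand): ctctcTGATGCAAcgccg
JDP2 (chr14:75428001-75428018, plus strand): ggggcTGATGCAAcccgt
Over the 14 genes the commonest form was TGATGCAA, at 10 sites, with TGATGAAA at ASNS, GARS1 and SLC7A1 and TGATGTAA at SLC3A2. Of the 14 sites, 10 began before the start, read along the gene, 8 of them within 100 bases of it, and 4 began after it. Those of SLC1A4, MARS1 and CARS1 ran across the start. The E-box letters that E47 is known to bind were about as frequent in these genes as elsewhere, with CAGGTG in 21.6% of the windows against 20.6% of all windows and CAGCTG in 15.7% against 17.9% (both strands). The looser form CANNTG was in 58.8% against 68.7%. In TARS1 the TGATGNAA match shares 2 bases with a CAGCTG. The full-length CREB/ATF letters TGACGTCA were found in PPP1R15A and in no other of these windows (1.96%, against 1.85% of all windows). A match is a string of letters and not a measured binding site.

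The 250 bases before the start are printed for 3 genes that were higher at both doses: ASNS with its element on the printed strand, CHAC1 with its element on the opposite strand, where it reads TTGCATCA, and PPP1R15A, whose capitals mark TGACGTCA. All 3 read 5′ to 3′ in the direction of the gene.
ASNS (chr7:97872409-97872658, minus strand): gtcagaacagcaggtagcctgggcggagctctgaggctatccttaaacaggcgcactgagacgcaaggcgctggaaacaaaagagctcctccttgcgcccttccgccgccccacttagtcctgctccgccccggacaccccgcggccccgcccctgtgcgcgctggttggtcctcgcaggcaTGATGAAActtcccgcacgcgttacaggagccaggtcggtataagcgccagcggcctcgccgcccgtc
CHAC1 (chr15:40953221-40953470, plus strand): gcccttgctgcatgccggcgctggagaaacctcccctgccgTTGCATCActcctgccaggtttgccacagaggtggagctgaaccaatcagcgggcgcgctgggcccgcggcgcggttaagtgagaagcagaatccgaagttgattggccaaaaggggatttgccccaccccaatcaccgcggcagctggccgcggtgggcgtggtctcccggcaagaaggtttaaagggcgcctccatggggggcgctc
PPP1R15A (chr19:48872171-48872420, plus strand): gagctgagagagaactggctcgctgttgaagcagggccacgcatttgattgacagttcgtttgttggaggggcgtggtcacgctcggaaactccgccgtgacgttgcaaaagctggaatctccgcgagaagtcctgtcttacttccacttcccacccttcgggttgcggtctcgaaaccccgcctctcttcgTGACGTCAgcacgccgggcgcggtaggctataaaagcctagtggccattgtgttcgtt

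The deposited values are probe intensities in arbitrary units that share 1 distribution across the 12 arrays, so every value is relative to the rest of the array. Arrays of 1 group correlated at 0.9906 or more, and no array of untreated cells correlated with one of treated cells above 0.9575. Between 21108 and 21141 of 47323 probes exceeded the background threshold of 127.7 on an array. Fold changes were taken on the log2 scale after background correction with an offset of 50, which understates the change of dim probes. Each is given with its standard error from a limma fit over all 12 arrays, with p-values adjusted over the 18454 features tested, and a gene was called higher or lower when the adjusted p fell below 0.05. Values of a gene's further probes come from a separate fit over all 22807 kept probes, with p-values adjusted over these. In such bulk samples, a change in the RNA of each cell and a change in the mix of cells cannot be told apart. The detected TCF3 probe was lower at 4 µM (-1.44 ± 0.12, adjusted p = 4.29e-12) and at 1 µM (-0.79 ± 0.12, adjusted p = 1.76e-06); whether it reads the introduced transcript is not given in the sources used here. All 6 ductal epithelial markers were above background, and their summed intensity ran from 39356 to 48971 on untreated arrays, 68639 to 80815 on the 1 µM arrays and 64098 to 77599 on the 4 µM arrays. Most of the sum was KRT8 and KRT19, which averaged 14142 and 25257 on untreated arrays. All 6 were called higher at 4 µM and 5 at 1 µM, where EPCAM did not pass. A second KRT18 probe was lower at 4 µM (-0.289 ± 0.106, adjusted p = 0.0265) and did not pass at 1 µM. Of 14 markers of leukocytes, endothelium, fibroblasts, acinar cells and islets, 7 stayed at background (PTPRC, CD3E, PECAM1, VWF, PTF1A, CPA1 and GCG). The other 7 summed to 4916 to 5183 in untreated cells, 2601 to 3195 at 1 µM and 2896 to 3329 at 4 µM; CD68 and CD14 were lower and the fibroblast genes COL1A1 and LUM higher at both doses, and the fibroblast gene DCN, the myeloid gene LYZ and the islet gene INS passed at neither. The part of these markers in the results below was not tested.

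At 4 µM against untreated cells, 15 of the 39 genes were higher, 5 were lower and 19 did not pass, with a median log2 fold change of 0.20. Among all features tested, 42.1% were called, 21.2% higher and 20.9% lower, with a median of -0.03, so the 38.5% of these genes called higher lay above the share of all features and the 12.8% called lower lay under it. At 1 µM, 16 were higher, 5 lower and 18 did not pass (median 0.12), where 40.3% of all features were called, 19.4% higher and 20.9% lower (median -0.03). The counts by role below are to be read beside these shares of all features. All 4 arrays at 4 µM lay above all untreated arrays for 15 of the 39 genes and below them for 4, as they did for 19.8% and 19.3% of all features (39.1% either way). At 1 µM the counts were 12 above and 4 below, beside 17% and 18% of all features (34.9% either way). The 2 comparisons share the untreated arrays. Of the genes called higher, VLDLR passed the filter on dim probes only through its 4 µM arrays and SLC1A4 only through its treated arrays. CHAC1, above background on 1 untreated array, and SESN2, on 2 and called at 1 µM alone, also reached the 4 arrays needed only with treated arrays. Calls of at least 2-fold were few: DDIT4 and NUPR1 at 4 µM and DDIT4 and PPP1R15A at 1 µM, all higher, against 4.8% of all features at 4 µM and 4.02% at 1 µM. No gene of the list was called lower by that much, against 3.53% and 2.47% of all features at these doses.

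**Figure D1:**
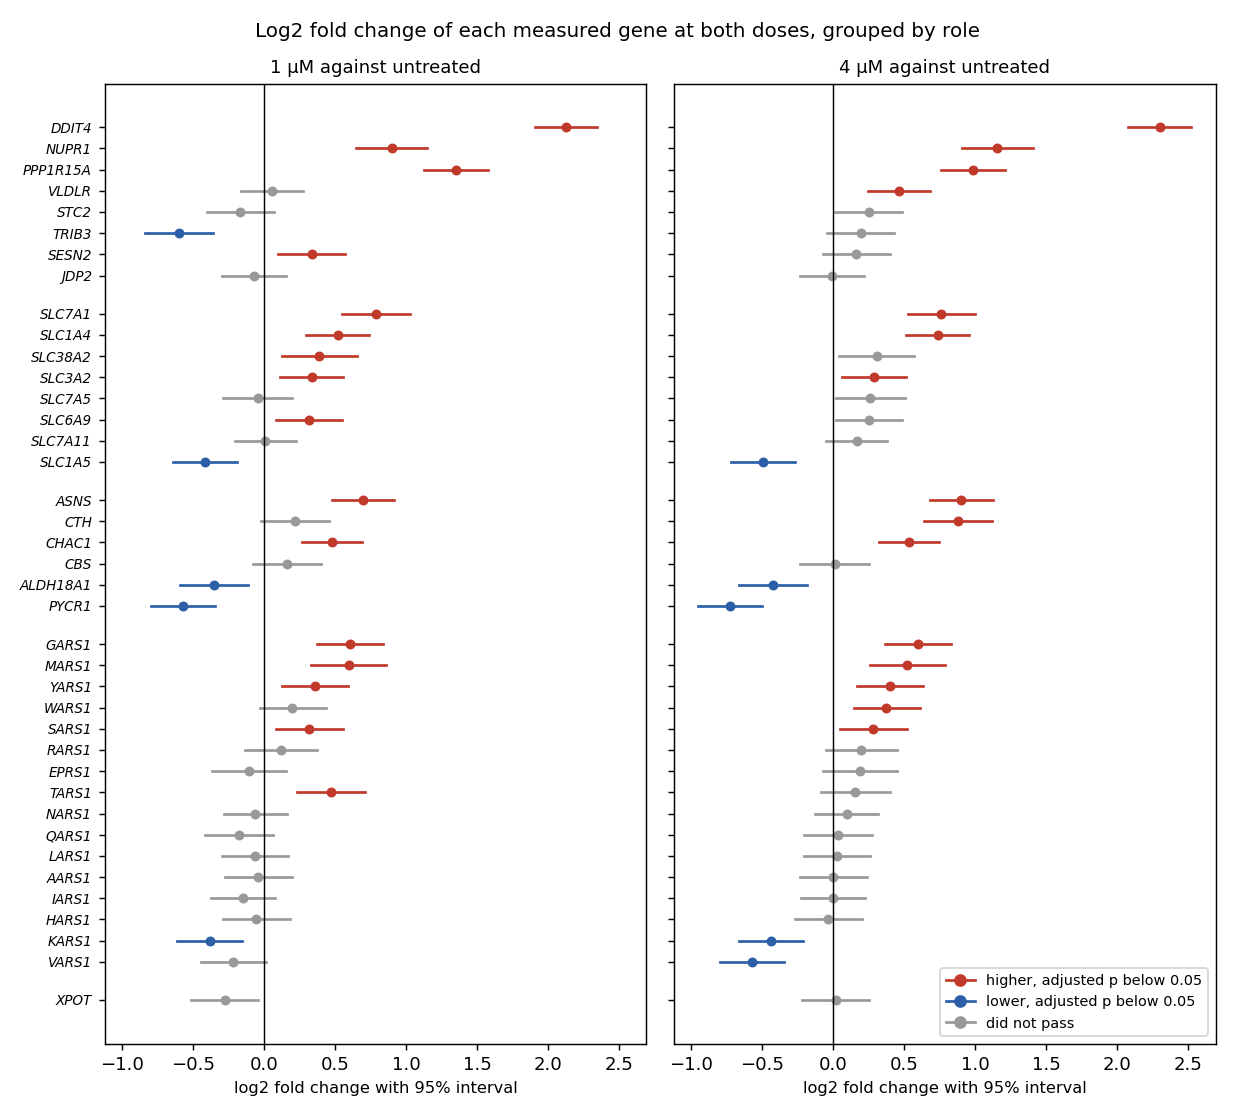
Log2 fold change of each of the 39 genes (points) with its 95% interval (bars) at 1 µM and 4 µM against untreated cells, by role from the top: regulators, transporters, enzymes, synthetases and XPOT. Red marks genes called higher, blue genes called lower and grey genes that did not pass; DDIT4 lies farthest to the right at both doses (2.13 at 1 µM and 2.30 at 4 µM).

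Among the 8 regulators, 4 were higher and none lower at 4 µM (DDIT4, NUPR1, PPP1R15A and VLDLR), and 4 were higher and 1 lower at 1 µM. DDIT4 encodes REDD1, an inhibitor of mTORC1. Its probe read 1504.8, 1672.7, 1539.2 and 1846 in untreated cells, 7426.8, 7555.9, 6989.2 and 6485.3 at 1 µM, and 8427.4, 8525.3, 7857 and 7262.4 at 4 µM. Every treated array lay far above the highest untreated one, and the doses overlapped. The log2 fold change was 2.30 ± 0.11 at 4 µM (adjusted p = 9.07e-19) and 2.13 ± 0.11 at 1 µM (adjusted p = 1.11e-17), and the dose difference did not pass (0.17, 95% interval -0.05 to 0.39).

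NUPR1, a small stress-induced chromatin protein gene, read 376.6, 345.6, 368.8 and 515.7 in untreated cells, 804.8, 707.4, 715.5 and 689.3 at 1 µM, and 807.5, 820.9, 1047 and 815.7 at 4 µM. All treated arrays exceeded all untreated ones, and the 4 µM arrays all lay above the 1 µM arrays by a narrow margin. It rose by 1.16 ± 0.12 at 4 µM (adjusted p = 1.08e-09) and 0.90 ± 0.12 at 1 µM (adjusted p = 2.45e-07), with no call between the doses (0.26, adjusted p = 0.208). A second NUPR1 probe rose as well, by 0.90 ± 0.13 at 4 µM and 0.71 ± 0.13 at 1 µM.

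PPP1R15A encodes GADD34, the phosphatase subunit that reverses eIF2α phosphorylation and so closes the response. Its probe read 1090.5, 1202.4, 1231.3 and 1003.3 in untreated cells, 2915.1, 2716.6, 2770.5 and 3057.3 at 1 µM, and 2510.4, 2191.8, 2313.9 and 1918.1 at 4 µM. The 3 groups did not overlap, and the lower dose gave the highest values. The rise was 0.99 ± 0.11 at 4 µM (adjusted p = 3.42e-09) and 1.35 ± 0.11 at 1 µM (adjusted p = 2.95e-12). Between the doses it was lower at 4 µM (-0.37 ± 0.11, adjusted p = 0.031), a call lost in 7 of the alternative fits, without replicate 1 or 4 at 1 µM and without replicate 2, 3 or 4 at 4 µM among them (adjusted p up to 0.147).

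TRIB3, a pseudokinase gene that ATF4 induces and that dampens ATF4 in turn, did not follow these genes. It read 1224.8, 1269.8, 1474.5 and 996.2 in untreated cells, 853.4, 822.7, 864.2 and 728.7 at 1 µM, and 1324.5, 1531.8, 1307.3 and 1466.6 at 4 µM. The 1 µM arrays lay below every other array, while the 4 µM and untreated arrays overlapped. It fell at 1 µM (-0.60 ± 0.12, adjusted p = 7.38e-05), did not pass at 4 µM (0.19 ± 0.12, adjusted p = 0.192), and was higher at 4 µM than at 1 µM (0.79 ± 0.12, adjusted p = 1.49e-05).

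SESN2, encoding sestrin 2, a leucine sensor that holds back mTORC1, was close to background, at 160.3, 155.1, 126 and 127.7 in untreated cells, 164.3, 185.5, 189.1 and 162.2 at 1 µM, and 152.6, 175, 139.1 and 162.6 at 4 µM. The 1 µM arrays exceeded the untreated ones, whereas the 4 µM arrays overlapped both. SESN2 was above background on 2 of 4 untreated arrays and on 4 of 4 at each dose. It thus passed the filter on dim probes only with treated arrays, so its p-values are not independent of that selection. The rise at 1 µM was 0.33 ± 0.12 (adjusted p = 0.0203), but it was lost without replicate 2 or 3 at 1 µM or replicate 3 or 4 of the untreated cells (adjusted p 0.053 to 0.0859), and 4 µM did not pass (0.16, adjusted p = 0.28).

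VLDLR, a lipoprotein receptor gene that ATF4 is known to induce, was not above background on any untreated array (103.9 to 109.2) or any 1 µM array (96.3 to 118.9). At 4 µM it read 153.6, 145.6, 135.8 and 134.6, just above the threshold on all 4 arrays. VLDLR thus passed the filter on dim probes only through the 4 µM arrays, so its p-values are not independent of that selection. It was at least 1.13-fold higher at 4 µM than in untreated cells (adjusted p = 0.000625) and at least 1.13-fold higher than at 1 µM (adjusted p = 0.0124; 0.0676 without replicate 4 at 1 µM). STC2, for the secreted glycoprotein stanniocalcin 2, averaged 815 ± 91.8 without tamoxifen, 728 ± 97 at 1 µM and 964 ± 86.7 at 4 µM (SD, n = 4 each). STC2 differed between the doses (0.42 ± 0.12, adjusted p = 0.0194), a call lost without any of replicates 2, 3 and 4 at 1 µM or 1 and 3 at 4 µM (adjusted p 0.0506 to 0.07), and passed against untreated cells at neither dose. JDP2, a repressor of the AP-1 and ATF family, passed in no comparison (-0.01 at 4 µM and -0.07 at 1 µM).

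**Figure D2:**
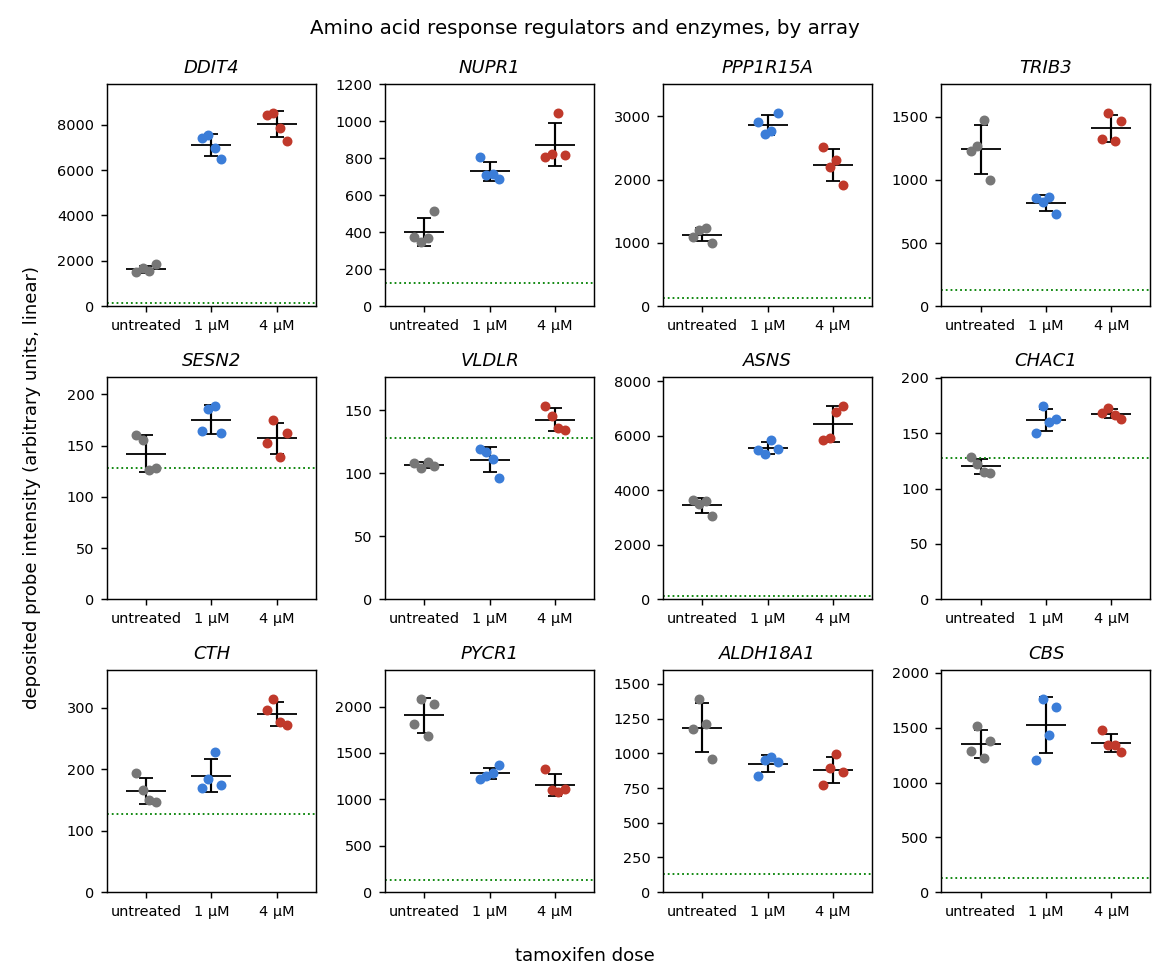
Deposited probe intensity (linear, arbitrary units, each panel with its own scale from 0) of 6 regulator genes and all 6 measured enzyme genes on every array; points are arrays, horizontal bars are group means, vertical bars are SD (n = 4 each) and the dotted line is the background threshold of 127.7. DDIT4, NUPR1, PPP1R15A and ASNS are higher at both doses, TRIB3 is low at 1 µM, and PYCR1 is lower at both doses.

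Among the 8 transporters, 3 were higher and 1 lower at 4 µM, and 5 were higher and 1 lower at 1 µM; none passed between the doses. SLC7A1, the cationic amino acid transporter CAT1 and a known ATF4 target, read 1837.4, 1966.5, 2130.4 and 1810.4 in untreated cells, 2801.3, 4092.8, 3404.8 and 3118.1 at 1 µM, and 3239, 3082.2, 3065.7 and 3727.8 at 4 µM. Both treated groups lay wholly above the untreated cells and overlapped each other. The rise was 0.76 ± 0.12 at 4 µM (adjusted p = 1.61e-06) and 0.79 ± 0.12 at 1 µM (adjusted p = 1.13e-06).

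SLC1A4 (ASCT1), a neutral amino acid exchanger, read 125.1, 124.1, 118.7 and 123.9 in untreated cells, 165.4, 163.3, 175 and 179.6 at 1 µM, and 219.1, 196.9, 208.2 and 165.5 at 4 µM. No untreated array exceeded the background threshold and all treated arrays did. SLC1A4 thus passed the filter on dim probes only through treated arrays, so its p-values are not independent of that selection. It was at least 1.60-fold higher at 4 µM (adjusted p = 8.25e-07) and at least 1.37-fold higher at 1 µM (adjusted p = 0.000194).

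Its relative SLC1A5 (ASCT2), the main glutamine carrier of many tumour lines, changed the other way; a TGATGCAA lies in the window of 1 of its 3 annotated starts. It read 797.6, 846.4, 835.2 and 707.7 in untreated cells, 551.4, 622.6, 615.1 and 607.6 at 1 µM, and 541, 573.5, 501.7 and 664.1 at 4 µM. Every treated array was below every untreated one, a fall of 0.50 ± 0.11 on the log2 scale at 4 µM (adjusted p = 0.00037) and of 0.42 ± 0.11 at 1 µM (adjusted p = 0.00253).

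SLC3A2 encodes CD98, the heavy chain that carries the light chains SLC7A5 (LAT1, for leucine and other large neutral amino acids) and SLC7A11 (xCT, for cystine) to the membrane. SLC3A2 read 2132.6, 2848.5, 2295.4 and 2260.2 in untreated cells, 2998, 3149.4, 2998 and 2808.3 at 1 µM, and 3085.8, 3001.3, 2759 and 2728.1 at 4 µM. Only the second untreated array reached into the treated ranges. The rise was 0.29 ± 0.11 at 4 µM (adjusted p = 0.0331) and 0.34 ± 0.11 at 1 µM (adjusted p = 0.0135). The 4 µM call was lost without replicate 1 or 2 at 4 µM or replicate 1, 3 or 4 of the untreated cells (adjusted p up to 0.117), and the 1 µM call without replicate 1 of the untreated cells (adjusted p = 0.0592). A second SLC3A2 probe gave larger rises, of 0.72 ± 0.11 at 4 µM (adjusted p = 3.56e-06) and 0.43 ± 0.11 at 1 µM (adjusted p = 0.00245).

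The light chains did not pass. SLC7A5 read 9747, 9244.6, 8634.7 and 7669.5 in untreated cells, 7669.5, 10474.7, 7652.6 and 8557.3 at 1 µM, and 12298.3, 10376.3, 9818.8 and 9810.9 at 4 µM. The 4 µM arrays all lay above the untreated ones (0.26 ± 0.12, adjusted p = 0.0767), and the 1 µM arrays overlapped them (-0.05, adjusted p = 0.801). Between the doses, the difference at 4 µM against 1 µM was 0.31 ± 0.12 (adjusted p = 0.102), which passed without replicate 2 at 1 µM (adjusted p = 0.0327). SLC7A11 stayed at the background threshold, at 126.7, 133.7, 120.3 and 116.9 in untreated cells, 123.5, 139.4, 115.1 and 122.8 at 1 µM, and 134.5, 139.1, 141.9 and 135.9 at 4 µM. It was above background on 1 of 4 untreated arrays, 1 of 4 at 1 µM and 4 of 4 at 4 µM, and neither dose passed (adjusted p = 0.221 at 4 µM and 0.959 at 1 µM).

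The other 2 transporters were called at 1 µM and not at 4 µM. SLC38A2 (SNAT2), a carrier of small neutral amino acids that starvation is known to induce, averaged 1637 ± 149 without tamoxifen, 2164 ± 400 at 1 µM and 2033 ± 297 at 4 µM (SD, n = 4 each). Its log2 fold change was 0.31 ± 0.13 at 4 µM (adjusted p = 0.0564, and between 0.0128 and 0.0495 in 6 alternative fits) and 0.39 ± 0.13 at 1 µM (adjusted p = 0.0156; 0.0686 to 0.0809 without replicate 3 at 1 µM or replicate 1 of the untreated cells). SLC6A9, the glycine transporter GLYT1, averaged 253 ± 10.7 without tamoxifen, 315 ± 47.6 at 1 µM and 299 ± 26 at 4 µM (SD, n = 4 each). Its log2 fold change was 0.25 ± 0.12 at 4 µM (adjusted p = 0.0789) and 0.32 ± 0.12 at 1 µM (adjusted p = 0.0259; 0.052 to 0.13 without replicate 2 or 4 at 1 µM or replicate 1 of the untreated cells). For both genes the dose difference did not pass (-0.08 for SLC38A2 and -0.07 for SLC6A9).

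**Figure D3:**
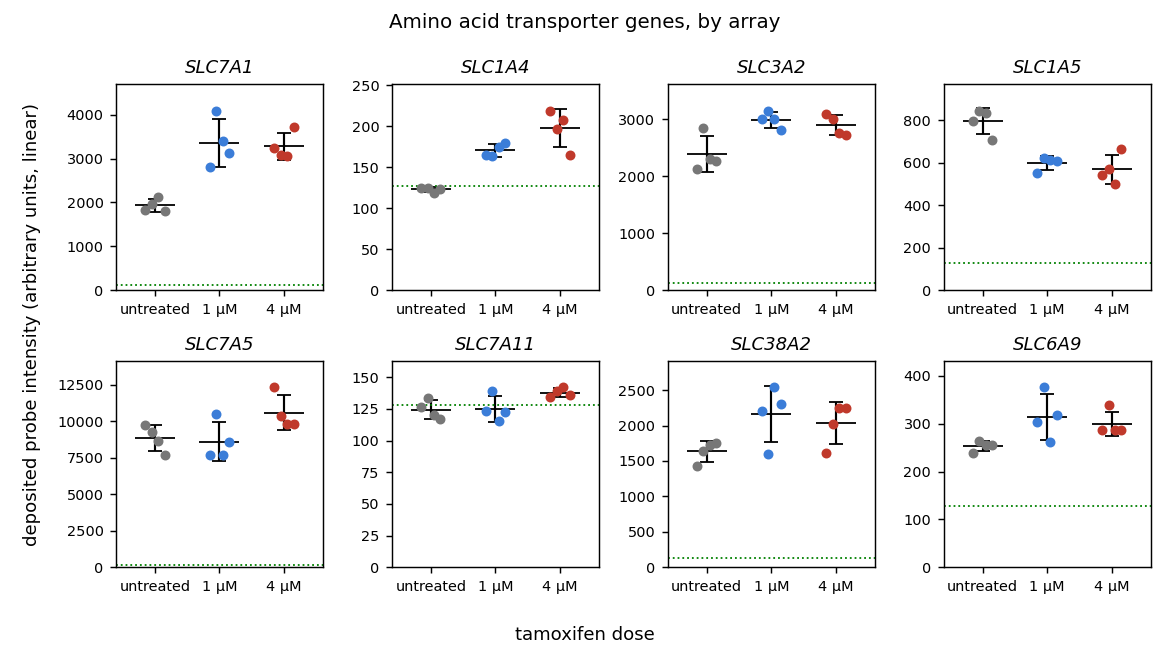
Deposited probe intensity (linear, arbitrary units, each panel with its own scale from 0) of the 8 transporter genes on every array; points are arrays, horizontal bars are group means, vertical bars are SD (n = 4 each) and the dotted line is the background threshold of 127.7. SLC7A1 and SLC1A4 lie wholly above untreated cells at both doses and SLC1A5 wholly below them, while SLC7A11 stays at the threshold.

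Among the 6 enzymes, 3 were higher and 2 lower at 4 µM, and 2 were higher and 2 lower at 1 µM. ASNS, which makes asparagine from aspartate and glutamine and is the classic ATF4 target, read 3624.7, 3482.8, 3611.7 and 3044.2 in untreated cells, 5480.1, 5344.7, 5854.2 and 5526.7 at 1 µM, and 5847, 5903.6, 6880.1 and 7106.9 at 4 µM. Treated and untreated arrays were far apart, and the highest 1 µM array just passed the lowest at 4 µM. ASNS rose by 0.90 ± 0.11 at 4 µM (adjusted p = 1.34e-08) and 0.70 ± 0.11 at 1 µM (adjusted p = 2.39e-06), and its second probe by 0.68 ± 0.11 and 0.51 ± 0.11 at these doses.

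CHAC1, which degrades glutathione and is a sensitive readout of ATF4 and CHOP activity in other settings, was dim here, at 128.5, 122.5, 114.6 and 114.1 in untreated cells, 149.9, 174.9, 160.1 and 163 at 1 µM, and 168.1, 173.1, 166.4 and 163.1 at 4 µM. It was above background on 1 of 4 untreated arrays and on all 8 treated arrays. CHAC1 thus passed the filter on dim probes only with treated arrays, so its p-values are not independent of that selection. The untreated mean lay under the background threshold (6.743 against 6.85 in log2), so the sizes of the CHAC1 rises rest on a level not above background. As fitted, the log2 fold change of CHAC1 was 0.53 ± 0.10 at 4 µM (adjusted p = 6.82e-05) and 0.48 ± 0.10 at 1 µM (adjusted p = 0.000317).

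CTH (cystathionine gamma-lyase) makes cysteine from cystathionine. It read 193.6, 165.3, 150.2 and 147.3 in untreated cells, 168.6, 184.2, 228.2 and 174.8 at 1 µM, and 296.8, 314.7, 277 and 272.1 at 4 µM. The 4 µM arrays stood above all others, and the 1 µM and untreated arrays overlapped. CTH rose at 4 µM against untreated cells (0.88 ± 0.12, adjusted p = 1.46e-07) and against 1 µM (0.66 ± 0.12, adjusted p = 0.000248), and did not pass at 1 µM (0.22 ± 0.12, adjusted p = 0.15). The other CTH probes gave smaller rises at 4 µM against untreated cells, of 0.33 ± 0.11 (adjusted p = 0.0172) and 0.31 ± 0.11 (adjusted p = 0.0215). Against 1 µM, the first of these passed (0.405 ± 0.111, adjusted p = 0.0171) and the other did not (0.321 ± 0.111, adjusted p = 0.0624). CBS, the enzyme before CTH in this route, passed in no comparison (0.01 at 4 µM and 0.16 at 1 µM).

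The proline enzymes were lower. PYCR1, the last step of proline synthesis, read 1815.7, 2085.9, 1679.6 and 2031.9 in untreated cells, 1223, 1253.4, 1278.9 and 1367.3 at 1 µM, and 1327.6, 1100.3, 1076.2 and 1111.8 at 4 µM. All treated arrays lay below all untreated ones, a fall of 0.73 ± 0.11 at 4 µM (adjusted p = 1.15e-06) and of 0.57 ± 0.11 at 1 µM (adjusted p = 6.05e-05). A second PYCR1 probe fell by 0.56 ± 0.12 at 4 µM, and the third, dimmer one did not pass (-0.25 ± 0.12).

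ALDH18A1, which commits glutamate to proline, read 1173.2, 1394.7, 1208 and 962.2 in untreated cells, 835.8, 949.8, 974.1 and 939.7 at 1 µM, and 768.9, 895.8, 998.7 and 863.4 at 4 µM. The treated ranges reached just past the lowest untreated array. It fell by 0.43 ± 0.12 at 4 µM (adjusted p = 0.00335) and by 0.35 ± 0.12 at 1 µM (adjusted p = 0.0157; 0.0585 to 0.0884 without replicate 1 at 1 µM or replicate 2 of the untreated cells).

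Among the 16 cytosolic tRNA synthetases, each of which loads 1 or, for EPRS1, a pair of amino acids onto tRNA, 5 were higher and 2 lower at 4 µM (median log2 fold change 0.13), and 5 were higher and 1 lower at 1 µM (median -0.05). The glycyl-tRNA synthetase gene GARS1 read 11157.5, 10602.8, 9363.7 and 9971 in untreated cells, 15400.8, 13608.5, 15017.5 and 18583.9 at 1 µM, and 17455.4, 14198.4, 14186.5 and 16398.5 at 4 µM. Both treated groups lay above all untreated arrays and over the same range. GARS1 rose by 0.60 ± 0.11 at 4 µM (adjusted p = 5.39e-05) and by 0.60 ± 0.11 at 1 µM (adjusted p = 5.45e-05).

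MARS1, for methionine, read 2214.7, 2592.4, 1908.2 and 3511.5 in untreated cells, 3868.3, 3633.3, 3723.8 and 3815.1 at 1 µM, and 3740.6, 3730.5, 3240.7 and 3594.8 at 4 µM. The fourth untreated array was far above the other 3 and inside the 4 µM range. The rise was 0.52 ± 0.13 at 4 µM (adjusted p = 0.00126) and 0.60 ± 0.13 at 1 µM (adjusted p = 0.000317). YARS1, for tyrosine, read 3576.6, 3677.1, 3469.8 and 3563.1 in untreated cells, 3999.9, 4953.2, 4714.2 and 4692 at 1 µM, and 4454, 5820.2, 4580.4 and 4140.1 at 4 µM. No treated array of YARS1 overlapped the untreated ones (0.40 ± 0.11 at 4 µM, adjusted p = 0.00422; 0.36 ± 0.11 at 1 µM, adjusted p = 0.0107).

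WARS1, for tryptophan and also an interferon-induced gene, read 1547.6, 1408.1, 1474.9 and 1308 in untreated cells, 1803.9, 1818.2, 1560.8 and 1421.2 at 1 µM, and 2157, 1891.8, 1640.8 and 1763 at 4 µM. The 4 µM arrays lay above the untreated ones and the 1 µM arrays overlapped them. WARS1 was called at 4 µM (0.38 ± 0.11, adjusted p = 0.00767) and not at 1 µM (0.20 ± 0.11, adjusted p = 0.174), and the dose difference did not pass (0.18 ± 0.11, adjusted p = 0.393).

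SARS1, for serine, averaged 1875 ± 164 without tamoxifen, 2336 ± 243 at 1 µM and 2286 ± 290 at 4 µM (SD, n = 4 each). Its calls lay close to the threshold: 0.28 ± 0.12 at 4 µM (adjusted p = 0.0485, up to 0.163 in alternative fits) and 0.32 ± 0.12 at 1 µM (adjusted p = 0.0272, up to 0.106). The 4 µM call was lost in 10 fits, among them those without replicate 1, 2 or 3 at 4 µM, 1 or 3 at 1 µM, or 2 or 3 of the untreated cells, and the 1 µM call without replicate 2 or 3 of either group. TARS1, for threonine, averaged 3127 ± 213 without tamoxifen, 4371 ± 721 at 1 µM and 3485 ± 293 at 4 µM (SD, n = 4 each). It was called at 1 µM (0.47 ± 0.12, adjusted p = 0.00158) and not at 4 µM (0.16 ± 0.12, adjusted p = 0.318). The dose difference of TARS1 did not pass (-0.32 ± 0.12, adjusted p = 0.0929; 0.0117 without replicate 1 at 1 µM).

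VARS1 and KARS1 were lower. VARS1, for valine, read 4935.4, 4389.9, 4875.9 and 3835.4 in untreated cells, 4036.5, 4115.7, 3884 and 3445.9 at 1 µM, and 3314.6, 3157.2, 2823.1 and 2831 at 4 µM. Values were lowest at 4 µM, with no overlap with either other group, and the 1 µM arrays overlapped the untreated ones. It fell by 0.57 ± 0.11 at 4 µM (adjusted p = 6.91e-05) and did not pass at 1 µM (-0.22 ± 0.11, adjusted p = 0.125; 0.0429 without replicate 4 of the untreated cells). Between the doses VARS1 was lower at 4 µM (-0.35 ± 0.11, adjusted p = 0.0391), a call lost in 8 alternative fits, among them those without replicate 2, 3 or 4 at 4 µM or 1, 2 or 3 at 1 µM (adjusted p up to 0.122).

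KARS1, for lysine, read 1386.2, 1479.8, 1315 and 1510.9 in untreated cells, 1029.3, 1139.2, 1008.8 and 1197.1 at 1 µM, and 894.2, 1148.3, 1154 and 1031.9 at 4 µM. All treated arrays were below all untreated ones, a fall of 0.44 ± 0.11 at 4 µM (adjusted p = 0.00147) and of 0.39 ± 0.11 at 1 µM (adjusted p = 0.00523).

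The other 8 synthetases (AARS1, EPRS1, HARS1, IARS1, LARS1, NARS1, QARS1 and RARS1) passed in no comparison. Their log2 fold changes ran from -0.03 for HARS1 to 0.20 for RARS1 at 4 µM and from -0.18 for QARS1 to 0.12 for RARS1 at 1 µM, with standard errors of 0.11 to 0.13. The 95% interval of AARS1, for alanine, was -0.24 to 0.24 at 4 µM. XPOT, the exporter that carries tRNA out of the nucleus, read 1193.8, 1111.3, 969.4 and 986.7 in untreated cells, 761.9, 828.4, 958 and 977.4 at 1 µM, and 964.8, 1223.2, 985.6 and 1138.6 at 4 µM. XPOT overlapped between all groups and did not pass at 4 µM (0.02 ± 0.12, adjusted p = 0.935) or 1 µM (-0.28 ± 0.12, adjusted p = 0.054, and 0.0332 to 0.0485 in 8 alternative fits).

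**Figure D4:**
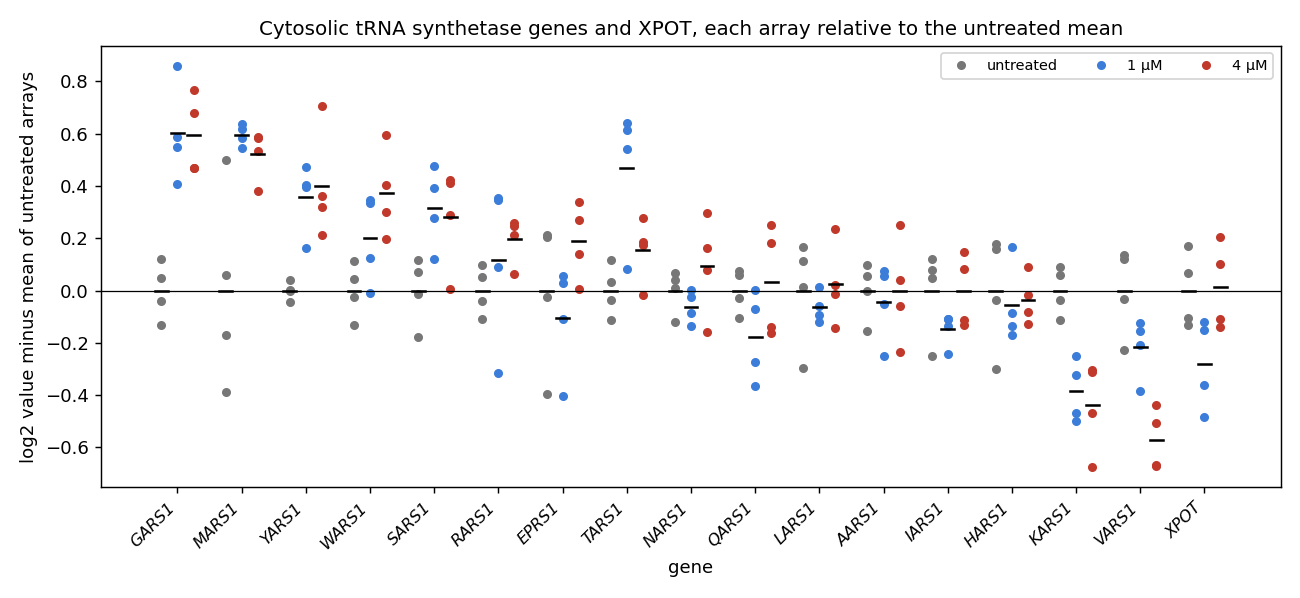
Log2 value of each array minus the mean of the 4 untreated arrays, after background correction with an offset of 50, for the 16 cytosolic tRNA synthetase genes and XPOT, ordered by their fold change at 4 µM; points are arrays and horizontal bars are group means. GARS1, MARS1 and YARS1 are higher at both doses, KARS1 is lower at both, and VARS1 is lowest at 4 µM.

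Between the doses, 4 of the 39 genes were higher at 4 µM than at 1 µM (TRIB3, CTH, STC2 and VLDLR) and 2 lower (PPP1R15A and VARS1), where 9.6% of all features were called, 4.83% higher and 4.76% lower. None of the 6 differed by 2-fold, as 0.108% of all features did upward and 0.065% downward. The arrays of the doses were wholly apart for 6 genes, 4 above and 2 below at 4 µM (7.02% and 6.41% of all features, 13.4% either way). These 6 included NUPR1, which was not called, and left out STC2, whose arrays overlapped between the doses. Set side by side, 12 genes were called higher at both doses, 4 lower at both, none in opposite directions and 14 at neither, and 9 were called at 1 dose. Of those 9, TRIB3, CTH, VLDLR and VARS1 also differed between the doses, whereas SESN2, SLC38A2, SLC6A9, TARS1 and WARS1 did not pass that test, and no difference in dose response is shown for them.

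**Figure D5:**
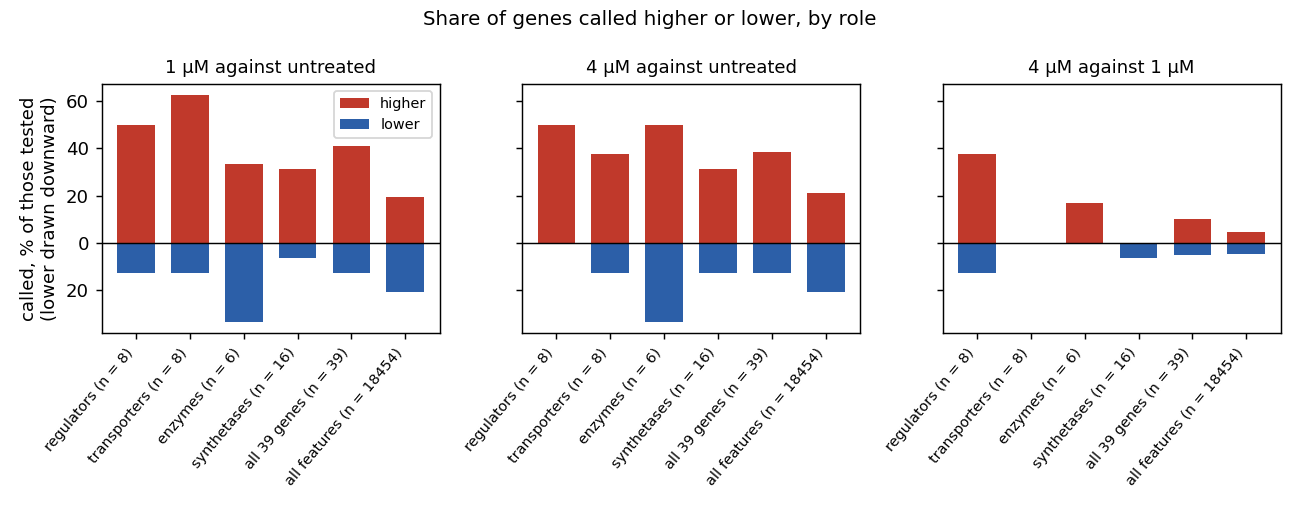
Share of genes called higher (red, upward) or lower (blue, downward), in percent of those tested, for each role, for all 39 genes and for all 18454 features, in the 3 comparisons. For 4 µM against untreated cells the 39 genes stand at 38.5% higher and 12.8% lower, and all features at 21.2% and 20.9%.

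The calls were also read against the promoter letters shown above. Of the 13 measured genes with TGATGNAA, 7 were higher, 1 lower and 5 not called at 4 µM (median log2 fold change 0.29), and 8 were higher, 1 lower and 4 not called at 1 µM (median 0.47). Of the 20 genes whose windows lack it, 6 were higher, 2 lower and 12 not called at 4 µM (median 0.22), and 6, 3 and 11 at 1 µM (median 0.09). Of all features, 21.2% were higher and 20.9% lower at 4 µM, and 19.4% and 20.9% at 1 µM. The difference between the 13 and the 20 genes was not tested. SLC1A4 and CHAC1 of the 13, and VLDLR and SESN2 of the 20, passed the filter on dim probes only with treated arrays. ASNS, CHAC1, SLC7A1, SLC1A4, SLC3A2, GARS1 and MARS1 held the letters and were higher at both doses. AARS1, IARS1, NARS1 and JDP2 held them and were called at neither dose, and SLC1A5 held them and was lower. DDIT4 and PPP1R15A, which rose most at 1 µM, have no TGATGNAA in these windows, which says only that the letters are not there. None of the 13 passed between the doses.

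Among the eIF2α kinases, eIF2α itself, ATF4 and its partners, 3 of 11 genes were higher and 1 lower at each dose. Of all features, 21.2% were higher and 20.9% lower at 4 µM, and 19.4% and 20.9% at 1 µM. ATF4 is counted here as not called, in a fit that holds the 46.2 reading described below. The 4 kinase genes EIF2AK1 to EIF2AK4, EIF2S1, for eIF2α, and the C/EBP gene CEBPG were called at neither dose. ATF3, a bZIP factor induced downstream of ATF4, read 224.2, 231.5, 261.6 and 215.7 in untreated cells, 3310.1, 3365.3, 2786.5 and 3220.1 at 1 µM, and 2442.8, 2024.9, 2338.8 and 2093.3 at 4 µM. The 3 groups were apart, with the highest values at 1 µM. ATF3 was higher by 3.33 ± 0.11 at 4 µM (adjusted p = 5.48e-23) and by 3.84 ± 0.11 at 1 µM (adjusted p = 1.46e-24), and lower at 4 µM than at 1 µM (-0.51 ± 0.11, adjusted p = 0.00202). CEBPB, a C/EBP partner of ATF4, rose by 1.46 ± 0.12 at 4 µM and 1.61 ± 0.12 at 1 µM, and DDIT3, which encodes CHOP, by 0.60 ± 0.12 and 0.51 ± 0.12. ATF5, a relative of ATF4 that is translated under the same control, fell by 1.08 ± 0.12 at 4 µM (adjusted p = 1.46e-09) and by 0.74 ± 0.12 at 1 µM (adjusted p = 2.96e-06).

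The brightest ATF4 probe read 6148, 6407.6, 7305.3 and 8130.4 in untreated cells, 11812.2, 12903.5, 9434.8 and 10700 at 1 µM, and 11777.5, 13114.7, 12726.8 and 46.2 at 4 µM. Apart from that last array, every treated array exceeded every untreated one. On the same array the other ATF4 probes read 250.1 and 1214.9, within or near the range of the other 4 µM arrays (228.7 to 264.8 and 849.6 to 1211.6). With all 12 arrays the fold change was -1.14 ± 0.86 at 4 µM (adjusted p = 0.309) and 0.68 ± 0.86 at 1 µM (adjusted p = 0.575). Without replicate 4 at 4 µM it was 0.85 ± 0.13 at 4 µM (adjusted p = 1.3e-06) and 0.68 ± 0.12 at 1 µM (adjusted p = 1.53e-05). No gene of the 39 had a value of this kind, and without that array 15 of them were higher and 5 lower at 4 µM. With all 12 arrays, the ATF4 probe that read 1214.9 on that array was higher at both doses. Its fold change was 0.647 ± 0.119 at 4 µM (adjusted p = 3.23e-05) and 0.735 ± 0.119 at 1 µM (adjusted p = 5.45e-06). The dimmest ATF4 probe was higher at 4 µM (0.343 ± 0.112, adjusted p = 0.0128) and did not pass at 1 µM (0.054 ± 0.112, adjusted p = 0.745).

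Genes related to the list moved in both directions. The shares of all features to set beside their counts were 21.2% higher and 20.9% lower at 4 µM, and 19.4% and 20.9% at 1 µM. Of 15 genes for tRNA synthetases of mitochondria alone, none was higher and 6 were lower at each dose, where 20.9% of all features were lower at either dose. Among those lower were CARS2 (-0.75 ± 0.11 at 4 µM and -0.91 ± 0.11 at 1 µM), EARS2 (-0.73 ± 0.11 and -0.56 ± 0.11) and SARS2 (-0.41 ± 0.11 and -0.36 ± 0.11). The 2 subunits of the cytosolic phenylalanyl-tRNA synthetase were called in opposite directions at 4 µM, FARSB higher (0.55 ± 0.12, adjusted p = 0.000282) and FARSA lower (-0.61 ± 0.10, adjusted p = 1.08e-05), and at 1 µM FARSA passed (-0.53 ± 0.10) and FARSB did not (0.24 ± 0.12). The dose difference of FARSB did not pass (adjusted p = 0.0965). Of 9 further amino acid transporters, 3 were higher and 1 lower at 4 µM: the taurine transporter SLC6A6 rose by 1.12 ± 0.12 and SLC38A1 by 0.57 ± 0.11, and SLC43A2 fell by 0.58 ± 0.11.

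The relatives of TRIB3 changed far more than TRIB3 itself. TRIB1 was higher by 2.84 ± 0.11 at 4 µM and 3.21 ± 0.11 at 1 µM, and TRIB2 was lower (-2.56 ± 0.12 at 4 µM and -1.96 ± 0.12 at 1 µM). SESN1, another sestrin gene, rose by 0.72 ± 0.12 at 4 µM and 0.48 ± 0.12 at 1 µM. Of 8 serine and one-carbon enzymes, 3 were higher and 4 lower at 4 µM, and none was higher and 4 lower at 1 µM. All features stood at 21.2% higher and 20.9% lower at 4 µM, and at 19.4% and 20.9% at 1 µM. PHGDH, which opens serine synthesis, read 3709.2, 3970.3, 3447.8 and 3790.9 in untreated cells, 3268.7, 3970.3, 3747.3 and 3358.8 at 1 µM, and 7211.6, 7786.6, 5820.2 and 5674.6 at 4 µM. The 4 µM arrays of PHGDH stood above all others, with a rise of 0.82 ± 0.12 against untreated cells (adjusted p = 3.57e-07) and of 0.88 ± 0.12 against 1 µM (adjusted p = 2.97e-06). SHMT1 fell by 1.51 ± 0.12 and MTHFD1 by 0.90 ± 0.12 at 4 µM.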

How the data were processed

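The values deposited by the authors are linear probe intensities, quantile-normalized between arrays as tested on the file (99.99% of ranks differed by under 1% between arrays). Per the submitters' processing notes GenomeStudio was used, and its version is not given in the sources used here. Another table holds 24 columns, 12 of values and 12 of detection p-values, under names that fit no sample label, and stayed out. The titles gave the groups and replicate numbers.

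Of 47323 probes, 30113 had 1 gene in the annotation supplied, 8 had several and 17202 none. Background was the mode of the intensities (101.8) with an SD from its lower side (15.8), and a probe was above background over 127.7 (mode plus 1.645 SD, 6.85 in log2) and kept when it was so on at least 4 of 12 arrays. This kept 22807 probes, and the brightest kept probe of each gene stood for it, giving 18454 features (12451 genes and 6003 unnamed probes). Background correction used normexp, fitted to the signals alone (offset 50), before log2. Group means were fitted with limma 3.58.1 in R 4.3.3 over all 12 arrays (9 residual degrees of freedom, 24 prior), two-sided, with Benjamini-Hochberg adjustment over 18454 features and calls below 0.05. Further probes of a gene were read from a separate fit of the same form over all 22807 kept probes, adjusted over these. For a probe not above background on any array of 1 group, the fold is a bound, set against the lowest signal counted as above background. A fold with 1 group mean under the threshold was marked as a bound too, as for CHAC1, whose changes are printed as fitted. The procedure was tested on simulated data before use.

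The members, roles, related lists and tests were chosen with earlier results of these data known. Array values are printed for up to 6 members per role with the largest called change at 4 µM and for ASNS, CHAC1, TRIB3, DDIT4, SESN2, SLC7A11, SLC7A5 and XPOT; of each related list up to 3 genes are named, with ATF4, DDIT3, ATF3, CEBPB and TCF3 always. CD14, the undetected markers, the named ductal markers, the uncalled kinase genes, EIF2S1, CEBPG and the array values of ATF3, ATF4 and PHGDH were added after their values were seen. The markers of other cells counted as undetected had no probe above background on 4 arrays. Promoter sequences are RefSeq's (GRCh38.p14); 34 of 41 genes matched, and GPT2, LARS1, NUPR1, PYCR1, SLC7A11, VARS1 and YARS1 had no entry. Replicate numbers did not pair the arrays (12 same-number pairs, residual correlations -0.0733 to 0.156). Alternatives changed the offset, background correction, filter, probe choice, scaling, arrays in the fit and replicate block, and left out each array in turn.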

Additional observations from a re-analysis of the deposited data

Results flagged for a closer look

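In 129 groups of 4 arrays examined, 6 held 1 array far from the other 3 (its gap to the nearest, over the group's range, above Dixon's critical value), where chance flags about 1 group in 20. Among the members, NUPR1 read 1047 on the third 4 µM array, against 807.5 to 820.9 on the others at 4 µM. SLC6A9 read 338.2 on the second 4 µM array, against 285.9 to 286.8. PYCR1 read 1327.6 on the first 4 µM array, against 1076.2 to 1111.8. STC2 read 678.3 on the first untreated array, against 851.8 to 875.1 on the other untreated arrays. Among related genes, CEBPB read 17171.3 on the second 4 µM array, against 14920.3 to 15191.8.

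ATF4 read 46.2 on the fourth 4 µM array, against 11777.5 to 13114.7 on the others at 4 µM. It is the lowest value of any probe on any array. Of 47323 probes, 2 exceeded 1000 on 11 arrays and fell under the background mode on 1, and both did so on that array: this ATF4 probe, and the RPL13AP5 probe, at 49.4 against 13367.9 to 26525.3 elsewhere. The other ATF4 probes read 250.1 and 1214.9 there. What produced the 2 values was not tested.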

How the results depend on the processing

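Of 117 member results (39 genes in 3 comparisons), 100 kept their call in every alternative that tested them and 17 changed it in at least 1 (the stricter filter on all arrays left out SESN2, VLDLR, SLC7A11, SLC1A4, CHAC1 and CTH); no member result changed sign past the threshold. Comparing 4 µM with 1 µM, members called lower were 0 with an offset of 16 and 0 with no filter on dim probes, against 2; the cause was not tested. Members called higher were 2 with the stricter filter (TRIB3 and STC2; 33 members tested), against 4, since it left out VLDLR and CTH. Leaving out 1 array at a time, members called were 18 to 21 at 4 µM against untreated cells (higher 13 to 16, lower 5), 18 to 22 at 1 µM (higher 13 to 16, lower 4 to 7) and 3 to 6 between the doses (higher 2 to 4, lower 0 to 2). The features called were 7003 to 7939 at 4 µM (higher 3546 to 4002, lower 3457 to 3937), 6841 to 7490 at 1 µM (higher 3317 to 3603, lower 3507 to 3887) and 1133 to 1923 between the doses (higher 567 to 968, lower 566 to 955). ATF4 at 4 µM against untreated cells ran from -1.82 without the second 4 µM array to 0.85 without the fourth, a reversed sign, and reversed to 0.65 with the stricter filter, which removed that probe.

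The replicate numbers share only a number: the closest other array carried the same number for 4 of the 12 arrays. With the replicate block, 21 members were called at 4 µM (16 higher, 5 lower; 7841 features), 21 at 1 µM (7534 features) and 6 between the doses (1850 features). Centring each array on its median moved the median fold change by at most 0.021. The 4 arrays of a group limit the precision, and genes near the threshold of 127.7 (SESN2, SLC7A11, VLDLR, SLC1A4 and CHAC1) carry little signal over background.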
